A study of Mus musculus with 18 samples.

Results

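The genes described here encode the proteasome: the 20S core, the 19S regulatory particle, the activators that cap the core and the factors that assemble it. They were chosen by symbol, as every RefSeq gene named Psma, Psmb, Psmc, Psmd or Psme with a number, together with Psmg1 to Psmg4 and Pomp. Of 48 such symbols, 44 had reads in all 18 libraries and were tested among the 6929 genes that met the same requirement. The remaining symbols are Psma8, for which no transcript was listed, and Psmb8, Psmb9 and Psmb11, which had reads in some libraries.

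The proteasome degrades proteins that carry ubiquitin chains. Its 20S core is a barrel of stacked rings, with outer rings of alpha subunits (Psma genes) that gate the entry and inner rings of beta subunits (Psmb genes) that hold the active sites. The base of the 19S particle binds and unfolds the protein with its ATPases (Psmc genes), and the lid removes the ubiquitin. The system also destroys misfolded secretory proteins that are returned from the endoplasmic reticulum (ER), and in many cell types a shortage of proteasome activity raises the transcription of subunit genes through the factor NRF1, encoded by Nfe2l1.

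MIN6, an established mouse insulinoma line that makes insulin, was treated with cyclopiazonic acid (CPA, 200 µM), which blocks the SERCA calcium pump of the ER and so causes ER stress. CPA1 cells were treated for 1 h and CPA18 cells for 18 h, and control cells received the vehicle DMSO for 18 h. Each treatment was measured by mRNA-seq and by Ribo-seq, which sequences the mRNA fragments that ribosomes cover, in 3 experiments (18 libraries). Ribosome occupancy is the Ribo-seq level of a gene relative to its mRNA-seq level. In the control mRNA-seq libraries Ins2 was at 116317 to 365226 RPKM (reads per kilobase of transcript per 1000000 reads of the library) and the beta-cell factor Pdx1 at 160.3 to 185 RPKM. The alpha-cell gene Gcg was at 39.7, 60.7 and 108 RPKM, on 23, 111 and 289 reads. The delta-cell gene Sst had 0, 6 and 11 reads and Ppy of pancreatic polypeptide cells 0, 6 and 0. The acinar gene Cpa1 had 1, 0 and 0 reads and the macrophage gene Cd68 0, 1 and 2. The acinar gene Prss2 and the leukocyte gene Ptprc had 0 reads. In these bulk samples a change in the number of cells and a change in the RNA of each cell cannot be told apart.

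Depth was 520960 to 4755030 reads per mRNA-seq library and 168129 to 1083297 per Ribo-seq library. Every treated Ribo-seq library was shallower than every control one, with 821147 to 1083297 reads in control, 392613 to 519309 in CPA1 and 168129 to 553842 in CPA18, and the part of depth in the Ribo-seq results was not tested. Proteasome genes held 0.219% to 0.816% of the mRNA-seq reads and 0.533% to 0.958% of the Ribo-seq reads. A single mRNA, Lars2, took 4.75% to 54.8% of the reads of an mRNA-seq library, and Ins1 with Ins2 took 6.60% to 20.9% in control and 1.44% to 5.06% in CPA18 mRNA-seq, so a level relative to the library total moves with these 3 genes. Counts of changed genes are therefore also given with totals that leave out Ins1, Ins2 and Lars2 (reduced totals), and changes are set against the median of all genes. In experiment 1 the control mRNA-seq library was the shallowest, with 45.1% of its reads from Lars2. The titles and the descriptions of the control libraries of experiment 2 name opposite assays, and the titles were followed.

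Promoter sequences are shown because many members rose after 18 h. RefSeq promoters (GRCm38.p6, 250 bases before to 50 bases after a gene's start) were found for 37 of the 44 genes, 40 promoters in all. The core of the antioxidant response element, which NRF1 binds, was searched as TGACNNNGC on both strands. It occurred in 6 of the 40 promoters (15%), those of Psmb5, Psmb6, Psmc6, Psmd9, Psmd12 and Psme4, and in 12.4% of all 32851 promoters. In the tests described below, Psmb5, Psmb6 and Psmd9 rose in both assays at 18 h, Psmc6 in Ribo-seq alone, and Psmd12 and Psme4 in neither. A link between the match and the rise was not tested. The 4 matches that lay wholly before the start with room around them are printed in 41 bases with the match in capitals. Their distance to the start was 23 bases (Psmd9), 39 (Psmb5), 219 (Psmc6) and 239 (Psmd12), and the Psmd12 match lies close to the edge of its window.
Psmb5, chr14:54618018-54618058, minus strand, match on the same strand: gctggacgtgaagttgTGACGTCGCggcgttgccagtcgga
Psmd9, chr5:123228143-123228183, plus strand, match on the same strand: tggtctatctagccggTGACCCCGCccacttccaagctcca
Psmc6, chr14:45329581-45329621, plus strand, match on the opposite strand: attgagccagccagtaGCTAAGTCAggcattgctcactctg
Psmd12, chr11:107479278-107479318, plus strand, match on the opposite strand: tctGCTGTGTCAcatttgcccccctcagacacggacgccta
The CCAAT box, searched as CCAAT on both strands, occurred in 12 of the 40 promoters (30%) against 37.4% of all promoters. The C/EBP-ATF element TGATGNAA occurred in 1 member promoter (2.5%), that of Psmd13, against 3.97% of all, and the longer ER stress response element in 0, against 0.119%. These are matches of letters, and binding was not measured.

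After 18 h of CPA the proteasome genes were higher in mRNA-seq. Of the 44 genes, 26 rose and 0 fell, where 27.0% of all genes rose and 7.89% fell (edgeR's quasi-likelihood test with the experiment as a block, Benjamini-Hochberg adjusted over all genes). The median change of the members was 0.75 on the log2 scale and that of all genes 0.38. With reduced totals 21 rose and 0 fell, 20 of them among the 26, where 21.2% of all genes rose and 12.4% fell, and the medians were 0.49 and 0.13. Within experiments 1, 2 and 3 the members' median lay above that of all genes by 0.48, 0.48 and 0.24, and 26 of the 44 genes lay above the median gene in every experiment, as did 30.1% of all genes. The 3 CPA18 RPKM values lay above the 3 control values for 9 of the 44 genes, as for 14.8% of all genes, and with reduced totals for 20, as for 19.5% of all genes. The count of 26 rests on pairing by experiment: without the block 0 members rose, where 1.43% of all genes did. It was 17 without experiment 2 and 6 without experiment 3. The share of all genes that rose with an experiment left out is not given here, so a loss particular to the members cannot be told from a general one. The count was 15 with an offset for GC content and length, where 24.6% of all genes rose. Proteasome transcripts were short, with a median of 1307 bases against 2850 for all genes.

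In Ribo-seq the members as a whole moved little more than other genes. The number of genes called varied between their groups, and a difference between groups was not tested. Of the 44 genes, 18 rose and 0 fell at 18 h, where 25.6% of all genes rose and 6.25% fell. The median change was 0.47 for the members and 0.42 for all genes, and within experiments 1, 2 and 3 the members' median lay above that of all genes by 0.04, 0.23 and 0.05. In every experiment 15 members lay above the median gene, as did 25.1% of all genes. All CPA18 RPKM values lay above all control values for 24 of the 44 genes, as for 31.0% of all genes, and with reduced totals for 15, as for 23.3% of all genes. With reduced totals 14 rose, all among the 18, where 17.5% of all genes rose and 8.57% fell. Scaling by TMM factors gave 10 genes that rose and 2 that fell (Psmd1 and Psmd6), and centring on the median gene gave 9 and the same 2. The shares of all genes that rose or fell under these scalings are not given here, so these counts cannot be set against them. Without the block 15 rose, where 21.4% of all genes did, and with the offset for GC content and length 17 rose, where 25.2% did. Of the 26 genes called in mRNA-seq 57.7% were also called in Ribo-seq, and of the 18 called in Ribo-seq 83.3% were also called in mRNA-seq. The matching shares over all genes are not given here, so this overlap cannot be set against them. The mRNA-seq and Ribo-seq changes correlated with an r of 0.56 over the members and 0.67 over all genes. Psmb1, Psmb3 and Psmc6 passed the test in Ribo-seq alone, and 15 members passed it in neither assay: Psmb7, Psmb10, Psmc1, Psmd1, Psmd2, Psmd6, Psmd8, Psmd10, Psmd12, Psmd13, Psmd14, Psme1, Psme2, Psme4 and Pomp.

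**Figure D1:**
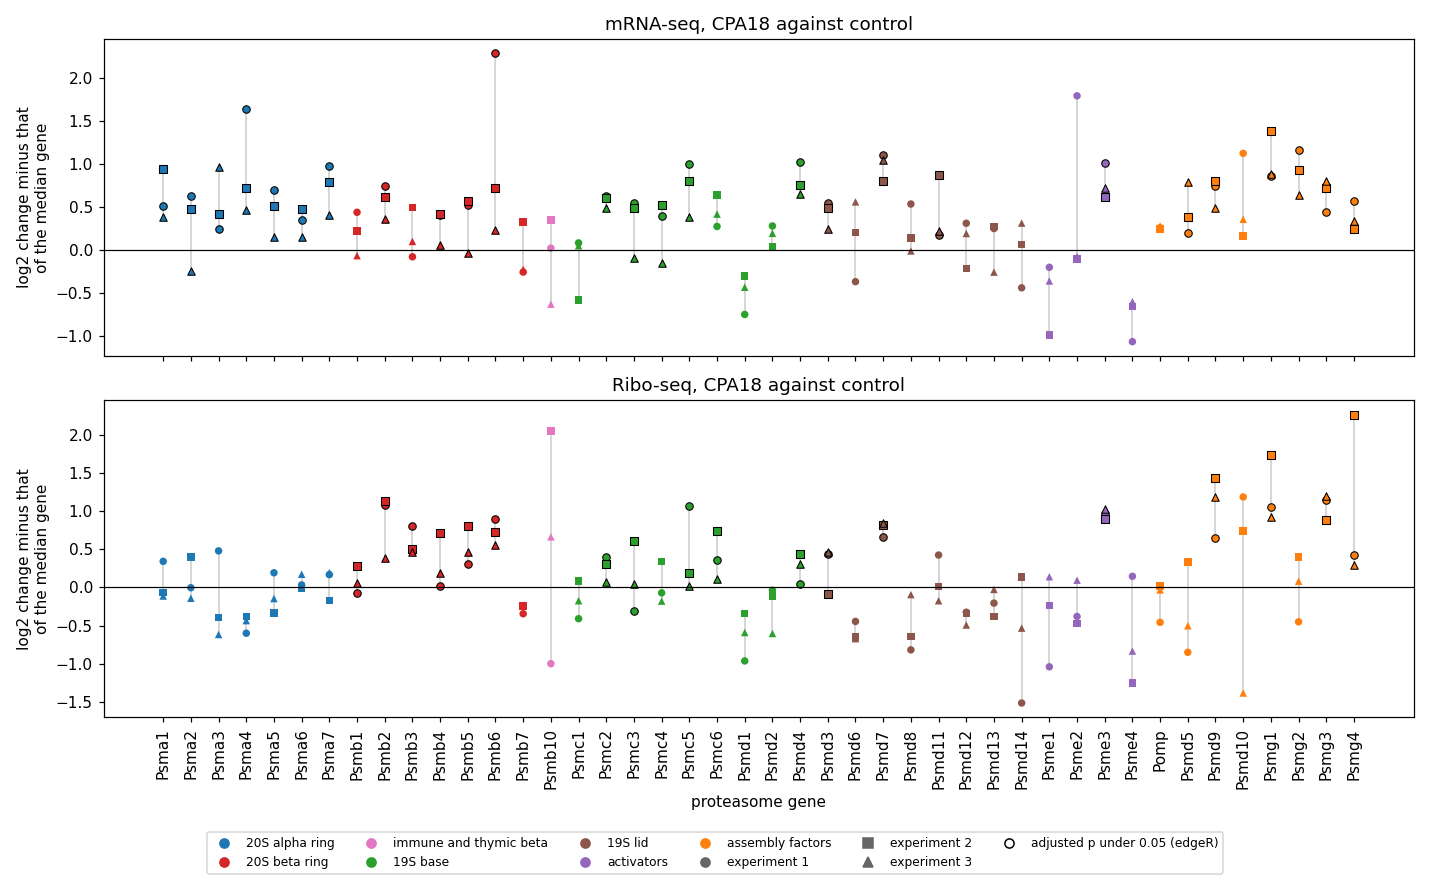
Log2 change from control to CPA18 minus that of the median gene (vertical axis) for each of the 44 genes (horizontal axis), in mRNA-seq (top) and Ribo-seq (bottom). Each symbol is 1 experiment, colours give the group, and black outlines mark genes with an adjusted p under 0.05. That p is from the edgeR test of any change relative to library totals, not of a difference from the median gene. All 7 alpha subunits are outlined in mRNA-seq and 0 in Ribo-seq, and 6 of the 7 beta subunits are outlined in Ribo-seq.

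The alpha ring, which forms the gate of the core, passed the test in mRNA-seq and not in Ribo-seq. All 7 alpha subunits rose in mRNA-seq, with log2 changes from 0.66 (Psma2) to 1.30 (Psma4) and a median of 0.92. For single genes, log2 changes are given with ± 1 SE and the adjusted p of the same edgeR test, over 3 experiments a group. With reduced totals 6 of 7 rose, the exception being Psma2 (adjusted p = 0.0899). In Ribo-seq edgeR called 0 of 7, as did DESeq2 and limma, 4 had an unadjusted p under 0.05, and the changes ran from -0.08 (Psma4) to 0.47 (Psma2), around the 0.42 of all genes. For all genes the share with such an unadjusted p is not given here. With the offset for GC content and length 4 of 7 rose in mRNA-seq, without Psma2, Psma5 and Psma6, and 1 of 7 in Ribo-seq, Psma2 (adjusted p = 0.0415).

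Psma4 had the largest mRNA-seq change of the ring. In mRNA-seq its level was 10.5, 9.43 and 10.2 RPKM in the control libraries of experiments 1, 2 and 3, 9.46, 14.5 and 15.4 RPKM in CPA1 and 31.6, 22.3 and 21.3 RPKM in CPA18 (1.30 ± 0.37, adjusted p = 0.00337). All 3 CPA18 values were above every control value, and the control values rest on 6, 17 and 27 reads. In Ribo-seq it was at 76.7, 53.0 and 52.2 RPKM in control and 70.6, 53.9 and 47.8 RPKM in CPA18 (-0.08 ± 0.29, adjusted p = 0.871). The Ribo-seq groups overlapped. The log2 change of its ribosome occupancy was -1.36 ± 0.46, adjusted p = 0.24, and this was not called. A transcript of the opposite strand, AY074887, shares 46 bases with Psma4, and reads were aligned to transcripts, so those reads may be split.

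Psma2 and Psma7 were measured with more reads. Psma2 was at 69.8, 96.6 and 129 RPKM in control and 104, 192 and 165 RPKM in CPA18 mRNA-seq (0.66 ± 0.27, adjusted p = 0.0432), higher in each experiment although the groups overlapped. Its Ribo-seq values were 182, 202 and 198 RPKM in control and 253, 353 and 221 RPKM in CPA18 (0.47 ± 0.20, adjusted p = 0.0554). Psma7 was at 73.7, 102 and 125 RPKM in control and 139, 252 and 249 RPKM in CPA18 mRNA-seq (1.10 ± 0.26, adjusted p = 0.00025), without overlap. In Ribo-seq Psma7 was at 160.3, 131 and 171 RPKM in control and 251, 154 and 242 RPKM in CPA18 (0.45 ± 0.20, adjusted p = 0.076), with overlap.

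The beta ring carries the active sites, and its subunits passed the test in Ribo-seq more widely than those of the alpha ring. In Ribo-seq 6 of 7 rose, by 0.49 (Psmb1) to 1.22 (Psmb2), and Psmb7 was not called. In mRNA-seq 4 of 7 rose (Psmb2, Psmb4, Psmb5 and Psmb6), by 0.66 to 1.25. The Ribo-seq median of the ring lay above that of all genes by 0.30, 0.71 and 0.38 in experiments 1, 2 and 3. With reduced totals 5 of 7 rose in Ribo-seq, without Psmb1, and the same 4 rose in mRNA-seq. With the offset for GC content and length 1 of 7 rose in mRNA-seq. The difference between the rings was not tested.

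The catalytic subunits are Psmb5, Psmb6 and Psmb7. Psmb5 (chr14:54614120-54617995), which holds the chymotrypsin-like activity, was at 115, 232 and 326 RPKM in control, 116, 201 and 302 RPKM in CPA1 and 158, 492 and 479 RPKM in CPA18 mRNA-seq. Experiment 1 was lowest in each group and the groups overlapped, and the gene was higher in CPA18 within each experiment (0.73 ± 0.25, adjusted p = 0.0148). Ribo-seq gave 341, 353 and 310.5 RPKM in control, 412, 398 and 386 RPKM in CPA1 and 588, 819.7 and 531 RPKM in CPA18. The 3 Ribo-seq groups did not overlap, and the change from control to CPA18 was 0.93 ± 0.17, adjusted p = 8.93e-06. The microRNA Mir686 shares 109 bases with the Psmb5 transcript.

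Psmb6 (chr11:70525324-70527858), with caspase-like activity, was at 20.4, 112 and 144 RPKM in control and 95.6, 264 and 254 RPKM in CPA18 mRNA-seq (1.25 ± 0.27, adjusted p = 6.67e-05). These mRNA-seq groups overlapped, though not with reduced totals. The lowest control value rests on 11 reads, and relative to the median gene the change was 2.29 in experiment 1 and 0.73 and 0.23 in experiments 2 and 3. In Ribo-seq Psmb6 was at 135, 110.1 and 117 RPKM in control and 350.5, 242 and 213 RPKM in CPA18, without overlap (1.11 ± 0.21, adjusted p = 8.53e-06).

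Psmb7 (chr2:38588046-38643952), with trypsin-like activity, was not called in either assay. It was at 79.2, 123 and 165 RPKM in control and 64.0, 220.3 and 213 RPKM in CPA18 mRNA-seq (0.36 ± 0.27, adjusted p = 0.286), lower in experiment 1 and higher in experiments 2 and 3. In Ribo-seq it was at 162, 181 and 173 RPKM in control, 165, 181 and 167 RPKM in CPA1 and 178, 203 and 183 RPKM in CPA18. The Ribo-seq change was 0.12 ± 0.21, adjusted p = 0.691, which was below the 0.42 of all genes and became -0.06 with reduced totals, so its direction depends on the scaling. Whether Psmb7 differed from Psmb5 and Psmb6 was not tested.

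**Figure D2:**
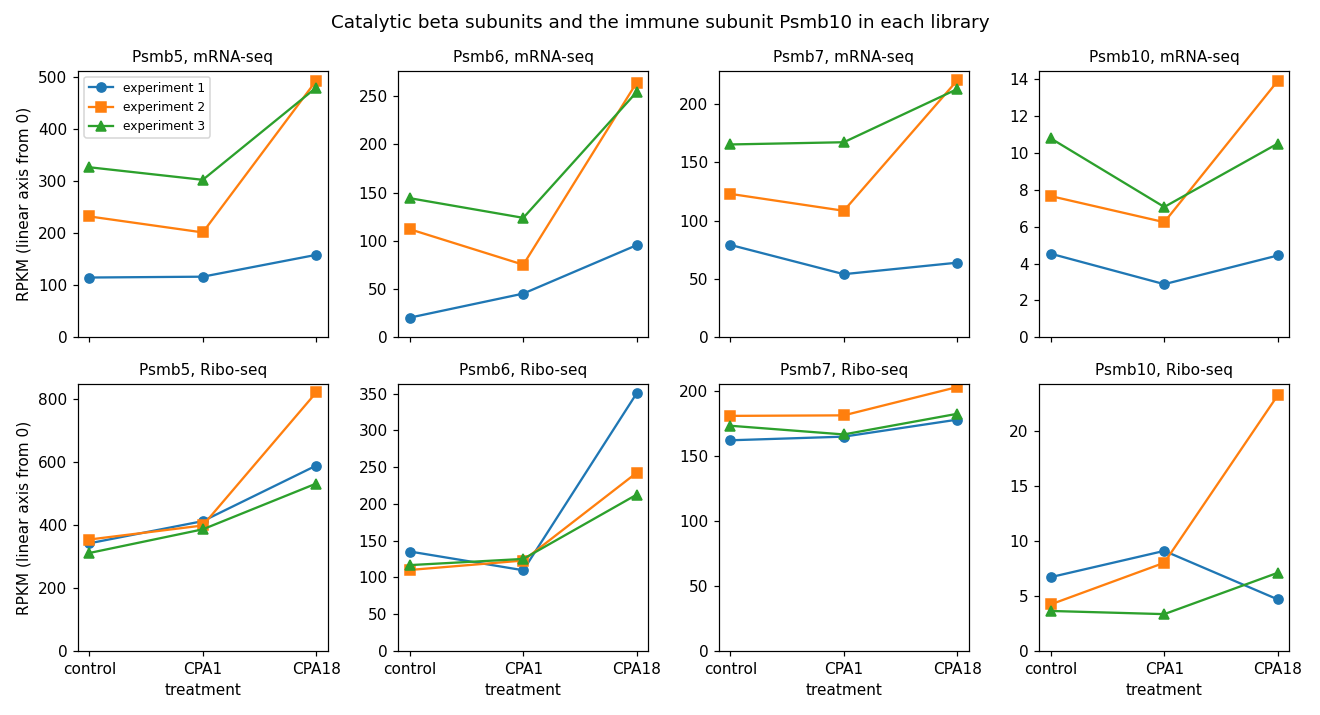
RPKM (vertical axes, linear from 0) of Psmb5, Psmb6, Psmb7 and Psmb10 by treatment, with mRNA-seq above and Ribo-seq below. Each line joins the 3 libraries of 1 experiment. Psmb5 and Psmb6 end higher at CPA18 than in control in every experiment and assay, as does Psmb7 in Ribo-seq. Control and CPA18 values overlap for each of these genes in mRNA-seq, and for Psmb7 and Psmb10 in Ribo-seq.

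The immune subunits Psmb8, Psmb9 and Psmb10 replace the catalytic ones in cells stimulated by interferon, and Psmb11 replaces Psmb5 in the thymus. Over all 18 libraries Psmb8 had 0 to 19 reads, Psmb9 0 to 7 and Psmb11 0 to 12. In mRNA-seq Psmb8 had 0, 7 and 10 reads in control and 1, 19 and 5 in CPA18, and Psmb9 0, 3 and 3 and 1, 7 and 5. A count of 0 allows up to 3 reads, which is 0.631 to 5.76 reads per 1000000 in mRNA-seq and 2.77 to 17.8 in Ribo-seq (counting error only). Psmb10 alone was tested. It was at 4.53, 7.66 and 10.8 RPKM in control and 4.44, 13.9 and 10.5 RPKM in CPA18 mRNA-seq (0.36 ± 0.41, adjusted p = 0.529). In Ribo-seq it was at 6.71, 4.24 and 3.63 RPKM in control and 4.69, 23.3 and 7.11 RPKM in CPA18 (1.26 ± 0.53, adjusted p = 0.0659), on 7, 5 and 5 and 1, 6 and 5 reads. The groups overlapped in both assays. In Ribo-seq Psmb10 was lower in experiment 1 and higher in experiments 2 and 3, and in mRNA-seq it was higher in experiment 2 alone.

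The base of the 19S particle holds the ATPase ring and ubiquitin receptors, and 4 of its 9 genes passed the test in both assays. In mRNA-seq 5 of 9 rose (Psmc2, Psmc3, Psmc4, Psmc5 and Psmd4), and in Ribo-seq 5 of 9 (Psmc2, Psmc3, Psmc5, Psmc6 and Psmd4). With reduced totals these counts were 3 and 2, and with the offset for GC content and length 3 and 3. Psmd4, a receptor for ubiquitin chains, was at 24.4, 48.6 and 54.3 RPKM in control and 47.5, 117 and 128 RPKM in CPA18 mRNA-seq (1.18 ± 0.29, adjusted p = 0.000501). Its Ribo-seq values were 68.2, 40.98 and 54.4 RPKM in control and 97.8, 73.4 and 83.6 RPKM in CPA18 (0.66 ± 0.26, adjusted p = 0.0394). The Ribo-seq groups of Psmd4 did not overlap, and its mRNA-seq groups did. With reduced totals its mRNA-seq groups did not overlap and its Ribo-seq groups did. The latter were then at 85.0, 52.0 and 66.7 RPKM in control and 107, 79.6 and 92.5 RPKM in CPA18, and the Ribo-seq call was lost. Psmd4 had the largest mRNA-seq change of the base.

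Psmc5, an ATPase, had the largest Ribo-seq change of the base. It was at 64.6, 118 and 138 RPKM in control and 125, 293 and 271 RPKM in CPA18 mRNA-seq (1.10 ± 0.25, adjusted p = 0.000215). These mRNA-seq groups overlapped, though not with reduced totals. Ribo-seq gave 171, 176 and 169.9 RPKM in control and 499, 266 and 214 RPKM in CPA18 (0.82 ± 0.19, adjusted p = 0.000393), without overlap. Psmd1, a scaffold of the base, had the lowest changes of the base in both assays. It was at 33.6, 11.9 and 9.95 RPKM in control and 19.3, 13.8 and 11.1 RPKM in CPA18 mRNA-seq (-0.15 ± 0.30, adjusted p = 0.729) and, in Ribo-seq, at 102, 79.3 and 83.1 RPKM in control and 73.1, 83.2 and 68.2 RPKM in CPA18 (-0.22 ± 0.19, adjusted p = 0.391). Psmd1 lay below the median gene in every experiment of both assays, and its Ribo-seq change was called lower with TMM factors (-0.60 ± 0.19, adjusted p = 0.0117).

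The lid, which removes ubiquitin through Psmd14, was the part of the particle with the lower medians in both assays. In mRNA-seq 3 of 8 lid genes rose (Psmd3, Psmd7 and Psmd11) and in Ribo-seq 2 of 8 (Psmd3 and Psmd7). The Ribo-seq median of the lid was 0.11, and its distance from that of all genes was -0.27, -0.22 and -0.14 in experiments 1, 2 and 3. Psmd7, the partner of Psmd14, was at 20.2, 36.1 and 34.2 RPKM in control and 41.9, 90.1 and 106 RPKM in CPA18 mRNA-seq (1.36 ± 0.30, adjusted p = 8.03e-05). In Ribo-seq it was at 48.2, 55.9 and 54.8 RPKM in control and 107, 131 and 122 RPKM in CPA18 (1.18 ± 0.23, adjusted p = 1.65e-05). Neither pair of groups overlapped, and Psmd7 had the largest change of the lid in both assays.

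Psmd14, the deubiquitinase itself, had the smallest mRNA-seq change of the lid. It was at 28.3, 15.2 and 12.8 RPKM in control and 20.1, 22.6 and 23.9 RPKM in CPA18 mRNA-seq (0.39 ± 0.32, adjusted p = 0.352). Its Ribo-seq values were 46.9, 47.6 and 61.0 RPKM in control and 22.9, 69.4 and 52.1 RPKM in CPA18 (-0.08 ± 0.28, adjusted p = 0.849). The lowest Ribo-seq value rests on 6 reads, and the groups overlapped in both assays. Psmd6, another lid subunit, had a Ribo-seq change of -0.19 ± 0.20, adjusted p = 0.494, and it was called lower with TMM factors (-0.56 ± 0.19, adjusted p = 0.0243).

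Side by side, 11 of 14 core genes (78.6%) and 8 of 17 particle genes (47.1%) rose in mRNA-seq, and 6 of 14 (42.9%) and 7 of 17 (41.2%) rose in Ribo-seq. Relative to all genes, the median of the core was 0.39 and that of the particle 0.26 in mRNA-seq, and 0.06 and -0.02 in Ribo-seq. With reduced totals 10 core and 5 particle genes rose in mRNA-seq, and 5 and 4 in Ribo-seq. With the offset for GC content and length 5 of 14 core and 5 of 17 particle genes rose in mRNA-seq, and 7 and 5 in Ribo-seq. The difference between core and particle was not tested.

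**Figure D3:**
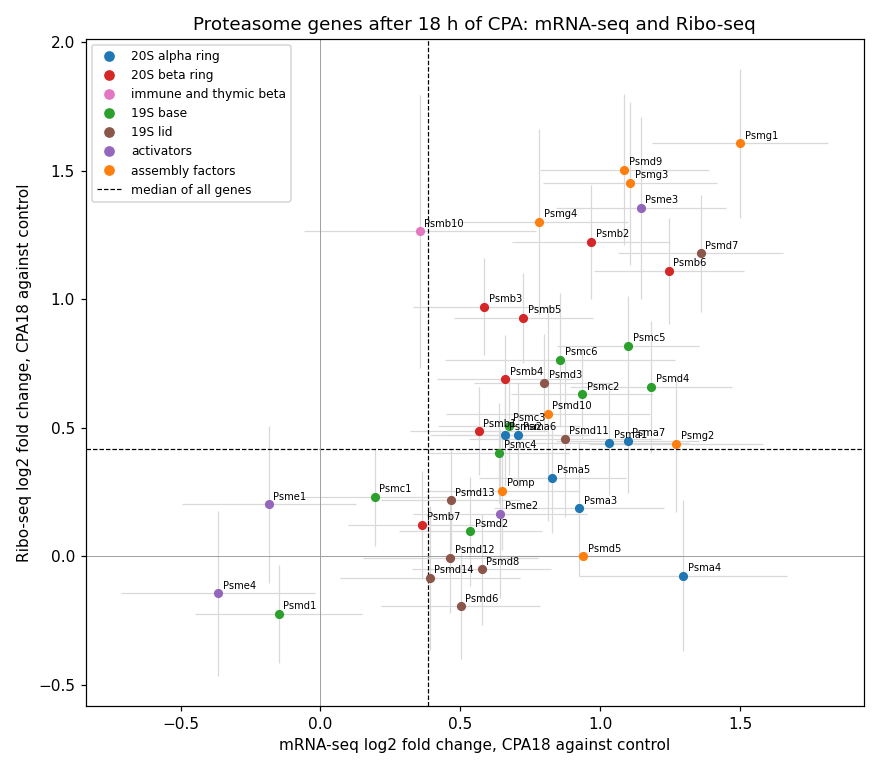
Log2 fold change from control to CPA18 of each of the 44 genes in mRNA-seq (horizontal axis) and Ribo-seq (vertical axis), with bars of 1 SE where one could be computed. Dashed lines mark the median of all genes, 0.38 and 0.42. The assembly factors Psmg1, Psmg3 and Psmd9 lie at the upper right, and the 7 alpha subunits lie right of the vertical dashed line, between -0.08 and 0.47 on the vertical axis.

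Activators replace the 19S particle at the ends of the core, and only Psme3 among the 4 tested passed the test, in both assays. Psme3, the nuclear activator PA28 gamma, was at 12.9, 12.02 and 12.2 RPKM in control, 14.3, 9.87 and 15.0 RPKM in CPA1 and 24.9, 26.4 and 30.3 RPKM in CPA18 mRNA-seq (1.14 ± 0.30, adjusted p = 0.00144). Ribo-seq gave 8.18, 5.22 and 10.7 RPKM in control and 22.2, 12.9 and 26.9 RPKM in CPA18 (1.35 ± 0.36, adjusted p = 0.00163). Control and CPA18 did not overlap in either assay, on 7 to 40 reads per Ribo-seq library.

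Psme1, a subunit of the interferon-inducible activator, was not called, with a log2 change of -0.18 ± 0.31, adjusted p = 0.675 in mRNA-seq and 0.20 ± 0.30, adjusted p = 0.647 in Ribo-seq. The values of its partner Psme2 are uncertain, since 795 of its bases match the gene Psme2b at 99.4% identity, so that reads could be split between them. Its mRNA-seq change was 0.64 ± 0.31, adjusted p = 0.0958, and 0.64 with the reads of both genes summed. Psme4 (PA200), which caps the core in the nucleus, had the lowest mRNA-seq change of the members. It was at 5.95, 3.96 and 2.00 RPKM in control and 2.75, 3.58 and 1.98 RPKM in CPA18 mRNA-seq (-0.37 ± 0.35, adjusted p = 0.43). With TMM factors it was called lower in mRNA-seq (-0.71 ± 0.24, adjusted p = 0.0373), and with the offset for GC content and length the change was 0.17.

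Assembly factors bind subunits before the complex is complete, and their medians were the highest of the groups in mRNA-seq. All 8 lay above the median gene in each experiment of mRNA-seq and 6 rose (Psmg1 to Psmg4, Psmd5 and Psmd9), with a median of 1.01. In Ribo-seq 4 rose (Psmg1, Psmg3, Psmg4 and Psmd9), with a median of 0.93. With reduced totals 5 rose in mRNA-seq and the same 4 in Ribo-seq, and with the offset for GC content and length 4 rose in mRNA-seq.

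Psmg1, which pairs with Psmg2 to hold the alpha ring during assembly, had the largest change of the 44 genes in both assays. It was at 21.8, 31.1 and 44.0 RPKM in control, 17.9, 30.6 and 61.0 RPKM in CPA1 and 38.1, 116 and 122 RPKM in CPA18 mRNA-seq (1.5 ± 0.31, adjusted p = 3.91e-05), where the CPA18 value of experiment 1 lay below the highest control value. In Ribo-seq it was at 42.6, 29.5 and 31.4 RPKM in control and 124, 130.4 and 73.5 RPKM in CPA18, without overlap (1.61 ± 0.29, adjusted p = 3.43e-06). Psmg2 itself was at 19.4, 26.5 and 28.4 RPKM in control and 41.5, 71.8 and 66.7 RPKM in CPA18 mRNA-seq (1.27 ± 0.31, adjusted p = 0.000501). It was not called in Ribo-seq, where it was at 63.7, 69.9 and 64.8 RPKM in control and 65.0, 122 and 84.8 RPKM in CPA18 (0.44 ± 0.27, adjusted p = 0.205), and these overlapped.

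Psmg3 and Psmg4 form another chaperone of the alpha ring. In Ribo-seq Psmg3 was at 28.4, 38.7 and 38.0 RPKM in control and 87.3, 94.8 and 108 RPKM in CPA18, without overlap (1.45 ± 0.32, adjusted p = 0.000137), and Psmg4 changed by 1.30 ± 0.36, adjusted p = 0.00294, on 8 to 35 reads per library. The mRNA-seq values of Psmg3 were 30.6, 50.4 and 50.2 RPKM in control and 40.2, 118 and 132 RPKM in CPA18. They overlapped, though not with reduced totals. Psmd9, a chaperone of the base, was at 13.5, 13.2 and 13.1 RPKM in control and 29.6, 47.2 and 36.7 RPKM in CPA18 Ribo-seq, without overlap (1.5 ± 0.29, adjusted p = 1.97e-05).

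Pomp, which takes part in the last steps of core assembly, missed the threshold. It was at 83.0, 144 and 134 RPKM in control and 95.8, 243 and 245 RPKM in CPA18 mRNA-seq (0.65 ± 0.27, adjusted p = 0.0502) and was called with reduced totals (adjusted p = 0.0484). Its Ribo-seq values were 166, 148 and 153 RPKM in control and 169, 199.6 and 186 RPKM in CPA18, without overlap and not called (0.26 ± 0.23, adjusted p = 0.419). With reduced totals these groups overlapped, at 207, 188 and 188 RPKM in control and 185, 216 and 205 RPKM in CPA18. Psmd5, another chaperone of the base, rose in mRNA-seq (0.94 ± 0.35, adjusted p = 0.0279) and had a Ribo-seq change of 0.00. Psmd10 (gankyrin) was called in neither assay.

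The core subunits are present in equal numbers in the finished complex, so their footprint density per coding length was set side by side, as a description. In control Ribo-seq it ran from 84.5 reads per 1000000 per kilobase of coding sequence for Psma4 to 532 for Psmb1 over the 14 core genes, a range of 6.29-fold. In control mRNA-seq RPKM ran from 10.1 (Psma4) to 310.1 (Psmb4), a range of 30.8-fold. Within the alpha ring the coefficient of variation was 29.5% in Ribo-seq and 72.0% in mRNA-seq. Within the beta ring it was 47.0% in Ribo-seq and 46.0% in mRNA-seq, so the rings differed in this. The control mRNA-seq value of Psma4, the lowest of the core, rests on 6, 17 and 27 reads. In Ribo-seq the alpha median was 210.4 in control and 294 in CPA18 reads per 1000000 per coding kilobase, and the beta median 316 and 628. Coding length is that of each gene's most-read transcript, whereas reads were summed over transcripts, which touches genes with more than 1 listed transcript, in the core Psma3, Psma6 and Psma7 and in the particle Psmc2 and Psmd4.

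**Figure D4:**
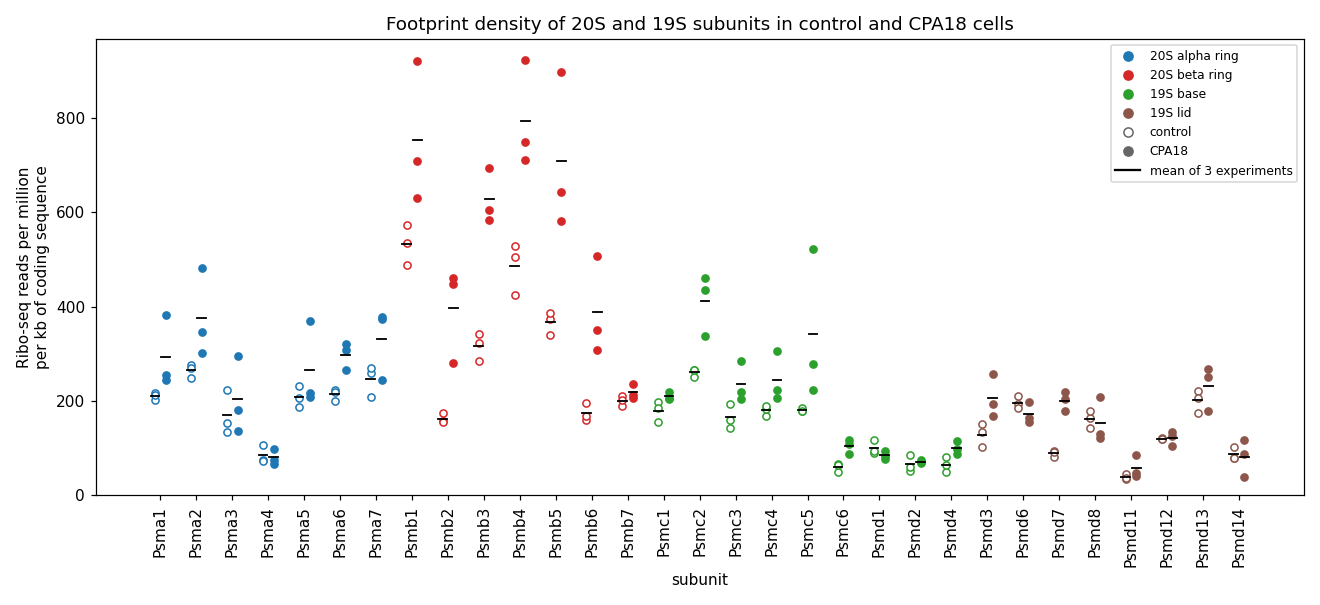
Ribo-seq reads per 1000000 per kilobase of coding sequence (vertical axis, linear from 0) for the 14 core and 17 regulatory particle genes, in control (open) and CPA18 (filled). Points are the 3 experiments and black lines their means. Among the beta subunits the CPA18 means run from 218 (Psmb7) to 794 (Psmb4), against 200.0 and 486 in control.

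After 1 h of CPA 1 proteasome gene passed the test. In mRNA-seq 0 of 44 genes were called, where 0.505% of all genes rose and 0.433% fell, 1 member had an unadjusted p under 0.05, and DESeq2 and limma also called 0. For all genes the share with such an unadjusted p is not given here. In Ribo-seq 0 rose and 1 fell, where 3.75% and 2.92% of all genes did. It was Psmd8, a lid subunit, at 113, 98.5 and 124 RPKM in control, 76.9, 58.3 and 75.05 RPKM in CPA1 and 89.5, 83.7 and 144 RPKM in CPA18. The CPA1 values were below every control value (-0.67 ± 0.21, adjusted p = 0.0324). The call was lost without the block (adjusted p = 0.137), without any 1 of the 3 experiments and with limma. The members' median was -0.09 in Ribo-seq, where that of all genes was 0.07.

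Between 1 h and 18 h of CPA 37 of 44 genes rose in mRNA-seq and 0 fell, where 33.8% of all genes rose and 5.77% fell. The median change was 0.91 for the members and 0.50 for all genes. The count was 22 with reduced totals, where 17.6% of all genes rose and 13.3% fell, 16 without experiment 2 and 1 without the block. In Ribo-seq 21 rose and 0 fell, where 18.2% and 5.41% of all genes did. That count was 14 with reduced totals, where 12.1% of all genes rose and 7.59% fell, and 11 without experiment 1. For this comparison the shares of all genes without an experiment or without the block are not given here. The largest changes were those of Psmg2 in mRNA-seq (1.98 ± 0.32, adjusted p = 3.17e-08) and Psmg1 in Ribo-seq (1.79 ± 0.32, adjusted p = 4.08e-06). This comparison and that of CPA18 with control share the CPA18 libraries.

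Ribosome occupancy, the test of the difference between the assays, called 0 members in each of the 3 comparisons by edgeR, DESeq2 and limma. Across all genes edgeR called 0.0866% higher and 0% lower at CPA1 against control, 0.462% and 0.0144% at CPA18 against control, and 0.0577% and 0.0144% at CPA18 against CPA1. At CPA1 against control 0 members had an unadjusted p under 0.05, where 7.12% of all genes had one. At CPA18 against control 4 did, all lower, where 9.18% of all genes had one. At CPA18 against CPA1 2 did, and the share of all genes is not given here. At 18 h against control all 7 alpha subunits had a negative value, from -0.18 to -1.36, while the beta subunits ran from -0.25 to 0.38. The occupancy median of all genes was 0.53, -0.09 and -0.23 in experiments 1, 2 and 3, so a sign depends on the reference. The share of all genes with a negative value is not given here, and the difference between the rings was not tested. The standard errors of the members ran from 0.30 to 0.70 on the log2 scale.

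Of 27 other genes of the pathway, listed by function, 25 were tested. At CPA18 against control 12 rose and 2 fell in mRNA-seq, where 27.0% and 7.89% of all genes did, and 9 rose and 2 fell in Ribo-seq, where 25.6% and 6.25% of all genes did. With reduced totals these counts were 11 and 2, and 6 and 3. Nfe2l1, which encodes NRF1, rose in mRNA-seq (2.36 ± 0.26, adjusted p = 3.05e-16) and in Ribo-seq (1.95 ± 0.19, adjusted p = 7.92e-16). Without the block Nfe2l1 still passed the test in mRNA-seq (adjusted p = 0.019), whereas each other gene of this list called in mRNA-seq lost its call, with adjusted p from 0.113 (Txnl1) to 0.512 (Sem1). Ddi2, the protease that activates NRF1, rose in mRNA-seq (0.95 ± 0.33, adjusted p = 0.017) and was not called in Ribo-seq (0.52 ± 0.34, adjusted p = 0.24). Vcp, the ATPase that extracts proteins from the ER, rose in mRNA-seq (0.97 ± 0.25, adjusted p = 0.000775) and was not called in Ribo-seq (0.14 ± 0.16, adjusted p = 0.535).

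Among proteins that sit on the particle, the ubiquitin receptor Adrm1 rose in mRNA-seq (1.0 ± 0.30, adjusted p = 0.00477) and was not called in Ribo-seq (0.64 ± 0.28, adjusted p = 0.0704). The thioredoxin-like Txnl1 rose in mRNA-seq (1.40 ± 0.26, adjusted p = 3.16e-06) and Ribo-seq (0.72 ± 0.20, adjusted p = 0.00273). Akirin2, which brings proteasomes into the nucleus, rose in mRNA-seq (1.5 ± 0.39, adjusted p = 0.000909) and was not called in Ribo-seq (0.79 ± 0.36, adjusted p = 0.0864). Ube3c, a ubiquitin ligase of the particle, fell in mRNA-seq (-1.0 ± 0.25, adjusted p = 0.000678) and in Ribo-seq (-1.29 ± 0.20, adjusted p = 9.32e-08). Ecpas, an adaptor of the particle, fell in mRNA-seq (-0.98 ± 0.31, adjusted p = 0.00833) and was not called in Ribo-seq (-0.19 ± 0.25, adjusted p = 0.586). Ubb, a ubiquitin gene, rose in mRNA-seq (0.87 ± 0.27) and Ribo-seq (1.05 ± 0.15), as did Rps27a (0.91 ± 0.25 and 0.94 ± 0.17). At 1 h Ubb (0.63 ± 0.15, adjusted p = 0.00205) had risen in Ribo-seq and Rps27a had fallen (-0.57 ± 0.18, adjusted p = 0.0312), the latter not called without the block (adjusted p = 0.121).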

How the data were processed

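MIN6 cells under 3 treatments were measured by mRNA-seq and Ribo-seq in 3 experiments. Per the study's methods, the authors kept reads that passed limits on quality and length and mapped these to mouse RefSeq RNA (GRCm38.p6) with Bowtie2, whose version is not given in the sources used here. The deposited tables hold, for each transcript, raw read counts and the RPKM calculated by the authors from all aligned reads. RPKM recomputed here from those counts differed by at most 0.00111 on the log2 scale. Libraries were grouped by title. Transcripts needed 1 read or more in every library, and their counts were added up per gene (6929 genes). Tests used edgeR 4.0.16 (quasi-likelihood) in R 4.3.3, with total counts as library sizes, the experiment as a block and Benjamini-Hochberg adjustment (threshold 0.05). Occupancy was the interaction of assay and treatment. Alternatives used limma 3.58.1 (pseudocounts 0.5 and 1), DESeq2 1.42.0, other scalings, no filter, 1 transcript a gene, an offset for GC content and length (6921 genes) and left-out experiments. BLAST 2.17.0 found shared sequence. In data simulated for CPA18 against control (6929 genes), 32.5% of 200 changes of 1 on the log2 scale were recovered in mRNA-seq and 38.5% in Ribo-seq.

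The labels number the experiments as batches, and same-numbered libraries deviated together from their group means, with a mean r of 0.57 in mRNA-seq (9 of 9 pairs over 0.1) and 0.14 in Ribo-seq (8 of 9). Where experiments are not stated to be separate cultures, p-values measure the spread between these libraries only. The members and lists were chosen with earlier results of these data known. Any member may be named, with values per library for the catalytic and immune subunits and for the highest and lowest mRNA-seq change of each group. Psma7, Psmc5, Psmd8, Psmd9, Psmg2 and Psmg3 were added after their values were seen, and so were the alternatives that combine reduced totals with other changes.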

Additional observations from a re-analysis of the deposited data

Results flagged for a closer look

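The 1 h and 18 h responses to CPA differed for 37 of the 44 proteasome genes in mRNA-seq and for 21 in Ribo-seq. This is by edgeR's test of CPA18 against CPA1 with the block, and each of these genes was higher at 18 h. Of all genes, 33.8% rose in mRNA-seq and 18.2% in Ribo-seq. With reduced totals the counts were 22 and 14, where 17.6% and 12.1% of all genes rose. They were 14 and 5 with DESeq2, and 1 and 15 without the block. Psmb11, the thymic subunit, lacked reads in some libraries and was not tested. Its 3 CPA18 mRNA-seq libraries held 4.83, 2.52 and 2.78 reads per 1000000 (6, 12 and 5 reads), above the 0, 2.43 and 1.66 of control (0, 4 and 4 reads), and this was picked out because the gene is outside the comparisons. CPA1 held 3.05, 5.29 and 1.58, and CPA18 Ribo-seq had 1 read in all 3 libraries. Short stretches of the Psmb11 transcript match many other transcripts, the longest over 146 bases, so these reads may not all be its own.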

How the results depend on the processing

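At CPA18 against control in mRNA-seq the 26 proteasome genes called became 16 with TMM factors (15 up, 1 down), 14 when centred on the median gene (13 up, 1 down), 11 with DESeq2, 15 with limma at a pseudocount of 0.5, 14 with totals without Ins1 and Ins2, 15 without the control of experiment 2 and 15 with the offset for GC content and length. Without the replicate block they became 0, and 3 with reduced totals as well. At CPA18 against CPA1 in mRNA-seq the 37 became 17 with TMM factors and 17 when centred, 14 with DESeq2, 22 with reduced totals, 22 with the offset, 21 without experiment 1 and the CPA1 mRNA-seq library of experiment 2, 1 without the replicate block and 3 with reduced totals as well. In Ribo-seq the 18 called at CPA18 against control became 11 when centred, 9 with DESeq2 (8 up, 1 down), 10 and 10 with limma at pseudocounts of 0.5 and 1, and 11 without the replicate block and with reduced totals. The 21 called at CPA18 against CPA1 became 9 with TMM factors, 10 when centred, 5 with DESeq2, 10 and 12 with limma and 11 without the replicate block and with reduced totals. The 1 called at CPA1 against control (Psmd8) became 0 without the replicate block with either total, without the filter and with limma. Leaving out 1 experiment gave 6 to 26, 16 to 30, 12 to 19, 11 to 15 and 0 to 0 genes in the same order, and 14 to 20, 14 to 16, 11 to 12, 6 to 10 and 0 to 0 with reduced totals. The other 121 counts stayed within 1.5 times the value reported, with 0 genes in ribosome occupancy under each alternative. The shares of all genes called with TMM factors, centring, DESeq2, limma or left-out experiments are not given here, so these counts describe the members alone. The causes of these shifts were not tested.

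The log2 changes from control to CPA18 that turned direction were of genes that were not called. In mRNA-seq Psmb10 was at -0.0899 with TMM factors, -0.10 when centred, -0.13 with DESeq2, and, without experiment 2, -0.0336 (0.63 without experiment 3), or -0.33 with reduced totals. Psmb7 was at -0.0267 with DESeq2 and -0.0921 without experiment 2 and with reduced totals, Psmd14 at -0.0025 without experiment 3 and with reduced totals, Psmd1 at 0.18 without experiment 1 (-0.32 without experiment 2) and 0.19 also without the CPA1 library of experiment 2, and Psme4 at 0.17 with the offset. In Ribo-seq Pomp was at -0.11, -0.17 and -0.12 with TMM factors, centring and DESeq2, and Psmb7 at -0.25, -0.31 and -0.25. Psmb7 was at -0.0914 without Ins1 and Ins2, -0.0623 with reduced totals, -0.0620 with these and no replicate block, and -0.0686, -0.0621 and -0.0542 with these and without experiments 1, 2 and 3. Psmd14 was at 0.11 without experiment 1 and -0.39 without experiment 2, and Psme4 at 0.0120, 0.12 and 0.16 without experiment 2, without experiment 3 and with the offset, against -0.58 without experiment 1. At CPA18 against CPA1 in mRNA-seq Psma4, which was called, was at -0.0175 without experiment 1 and with reduced totals.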
